A study of Mus musculus with 9 samples.

Results

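The livers compared here came from mice that received dmPGE2 and then a toxic dose of acetaminophen (APAP), set against livers of mice that received saline. The comparison ran across all genes with a value of 0.5 FPKM or more in at least 3 of the 9 mRNA libraries of the series, which kept 11557 of the 21870 genes in the deposited table. FPKM are fragments mapped to a gene, scaled to its transcript length and to the library total. The question was which part of the injury response remained when dmPGE2 had been given first, and which genes lay at the control level.

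All mice were wild-type C57 BL6 animals of 8 weeks and about 20 g. The control group received saline. The APAP group received 500 mg/kg APAP into the peritoneum. The dmPGE2 plus APAP group received 300 µg/kg dmPGE2, also into the peritoneum, and APAP at that dose 1 h later. Livers were taken 6 h after APAP, with 3 libraries in each group, from total RNA depleted of ribosomal RNA. The labels say no more than that there were 3 samples a group, so p-values measure the spread between these samples, which may be technical. There was no group with dmPGE2 alone, so that in dmPGE2 plus APAP against control the response to APAP and any response to dmPGE2 itself cannot be told apart. Whole liver holds many cell types, and a lower level of a gene can mean fewer cells of a type or less of its RNA per cell, which cannot be told apart in bulk tissue.

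APAP is converted in hepatocytes around the central vein, mainly by cytochrome P450 enzymes such as Cyp2e1, to a reactive quinone imine that uses up glutathione and binds mitochondrial proteins. Oxidative stress then activates the kinase JNK, and the hepatocytes of that zone die by necrosis. Platelets, neutrophils and monocytes enter the injured zone, and the surviving hepatocytes later divide. Prostaglandin E2 is a lipid mediator made by cyclooxygenases; its receptors include forms that raise cyclic AMP (cAMP), which activates the transcription factor CREB. dmPGE2 is a dimethyl derivative that is broken down more slowly than the natural compound.

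The summed FPKM was between 371958 and 393938 in the 9 libraries, 9979 to 10321 genes reached 1 FPKM, and albumin (Alb), the main hepatocyte secretory product, took 5.6% to 8.33% of all FPKM. FPKM do not record the number of reads, so the depth behind a value is unknown. Some libraries stood apart within their group. Control replicate 3 lay more than 2-fold from both other controls for 380 of the genes tested, against 78 for control replicate 1 and 67 for control replicate 2. Among the dmPGE2 plus APAP libraries, replicate 1 did so for 160 genes, against 59 for replicate 2 and 78 for replicate 3. Replicate 1 also had the highest level of its group for 21 of 23 immediate early genes tested.

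Against control, 1870 genes passed an adjusted p of 0.05 with limma, or 16.2% of those tested. Of these, 1057 were higher in dmPGE2 plus APAP, or 9.15% of the genes tested, and 813 were lower, or 7.03%. A difference of at least 2-fold was held by 538 of the called genes, or 4.66% of those tested, of which 393 were higher and 145 lower. In 1799 of the 1870 called genes the deposited values of the 3 treated and the 3 control libraries did not overlap. Among all genes tested, the deposited values of all 3 treated libraries were above every control in 11.3% and below every control in 31.1%. The share of calls that were higher was 56.5% after the libraries were rescaled to a common centre. It was 52.5% with another rescaling and 28.5% on the deposited FPKM as they stood, with 714 higher and 1792 lower. The rescaling moved differences by 0.154 on the log2 scale for genes far above the pseudocount, and by less for low genes. The number of called genes fell to 1381 without control replicate 1 and 1243 without control replicate 2. It was 1277, 1028 and 1135 without dmPGE2 plus APAP replicate 1, 2 and 3. The higher calls then numbered 644 without replicate 2 and 680 without replicate 3 of dmPGE2 plus APAP. The lower calls numbered 476 without control replicate 2, and 530, 384 and 455 without dmPGE2 plus APAP replicate 1, 2 and 3. Against the same 3 controls, APAP alone gave 2393 called genes, or 20.7% of those tested, with 1307 higher (11.3%) and 1086 lower (9.4%).

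**Figure D1:**
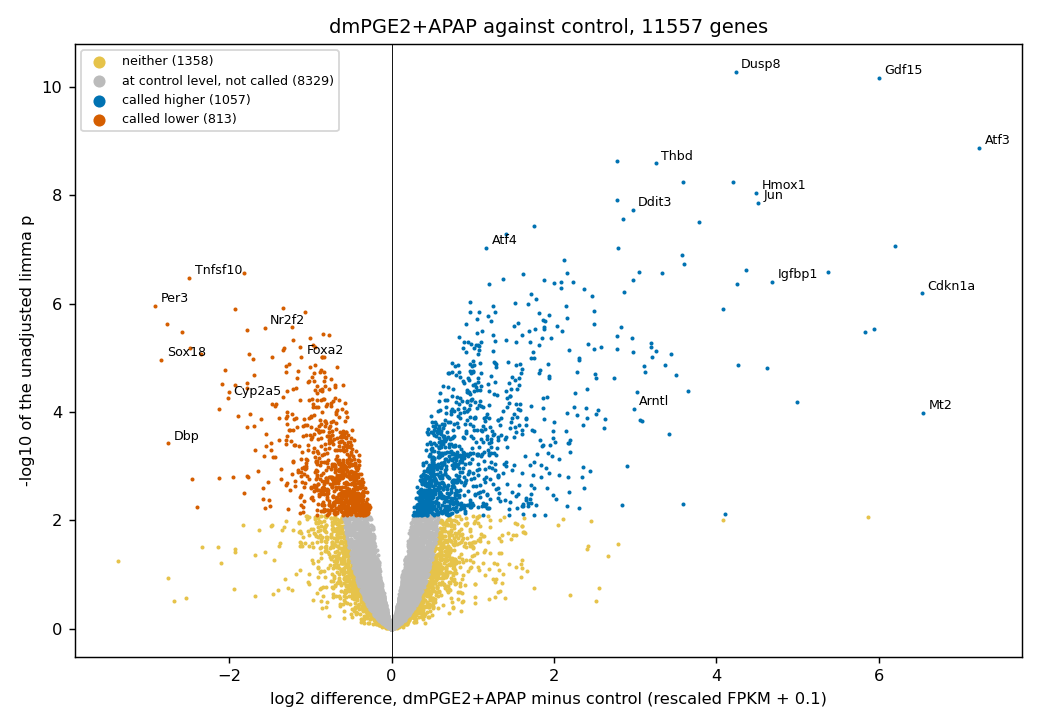
Each point is one of the 11557 genes tested. The x axis is the log2 difference of dmPGE2 plus APAP from control and the y axis is minus log10 of the unadjusted p of limma. The 1057 called higher genes and 813 called lower genes are coloured, and the rises reach farther from 0 than the falls.

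A gene was said to lie at the control level when the 95% interval of its log2 difference from control stayed between a 2-fold fall and a 2-fold rise. That held for 9169 genes, or 79.3% of those tested. Of these, 840 were also called, with a difference inside the bound, and 8329 were not. Another 1358 genes were neither called nor at the control level, so that the data did not settle which they were. With a narrower bound of 1.5-fold, 5447 genes lay at the control level.

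Genes of stress signalling and growth arrest were among the 12 largest rises. Atf3, an AP-1 family transcription factor induced by stress, measured 0.284, 0.235 and 0.599 FPKM in the controls and 88.6, 61.2 and 43.3 FPKM under dmPGE2 plus APAP, or 151 times the control level (log2 difference 7.24, SE 0.30, limma adjusted p = 5.19e-06). APAP alone gave 112, 88.6 and 113 FPKM. All treated libraries were far above every control, and the groups with and without dmPGE2 overlapped. Gdf15, a stress-induced hormone of the TGF-beta family, measured 1.58, 2.1 and 2.59 FPKM in controls, 134, 145 and 98.8 FPKM with dmPGE2 plus APAP and 187, 154 and 175 FPKM with APAP. Its rise was 64.2-fold (log2 6.00 ± 0.18), and each library with dmPGE2 lay above the controls and below the APAP libraries. Cdkn1a, the gene of p21, which arrests the cell cycle, measured 2.53, 1.8 and 0.352 FPKM in controls, 125, 107 and 100.3 with dmPGE2 plus APAP and 107, 122 and 107 with APAP. The lowest control was replicate 3, and the difference from control was log2 6.54 ± 0.54 (limma adjusted p = 1.77e-04). The metallothioneins Mt2 and Mt1, zinc-binding proteins, also stood among the 12 largest rises. Mt2 measured 53.8, 29.7 and 1.82 FPKM in the controls and 1332, 1245 and 1123 FPKM with dmPGE2 plus APAP. The controls of Mt2 were widely spread, with replicate 3 far the lowest, and its rise of log2 6.55 had an SE of 1.01. Igfbp1, a hepatocyte protein that binds insulin-like growth factors, measured 45.6, 66.6 and 22.2 FPKM in controls, 698, 1150.4 and 1047 with dmPGE2 plus APAP and 839.7, 698 and 892 with APAP. Every control was far below every treated library, and the treated groups overlapped.

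The upstream sequences of 4 of the 12 largest rises are shown as examples of genes that hold a short CREB or ATF site near their start, the kind of site through which cAMP and stress kinases act. They were picked as members of the immediate early list with that match. Mt1 and Hilpda, also among the 12, held the site too but are not on that list and are not shown. Mt2, Cdkn1a, Gdf15, Igfbp1 and Jun, also among the 12, held none in their windows. They are the 250 bases before the annotated start, 5′ to 3′, from RefSeq on GRCm38.p6: Atf3 at chr1:191183334-191183583 on the minus strand, Fos at chr12:85473640-85473889 on the plus strand, Nr4a1 at chr15:101266596-101266845 on the plus strand and Btg2 at chr1:134079156-134079405 on the minus strand. Capitals mark the short form of the cAMP response element (CRE), TGACG or its reverse complement CGTCA, and in Btg2 the full element TGACGTCA.
Atf3: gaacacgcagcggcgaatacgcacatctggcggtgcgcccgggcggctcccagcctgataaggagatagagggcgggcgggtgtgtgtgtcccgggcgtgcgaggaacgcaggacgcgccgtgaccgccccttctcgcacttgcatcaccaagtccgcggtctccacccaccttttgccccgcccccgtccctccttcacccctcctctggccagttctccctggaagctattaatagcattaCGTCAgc
Fos: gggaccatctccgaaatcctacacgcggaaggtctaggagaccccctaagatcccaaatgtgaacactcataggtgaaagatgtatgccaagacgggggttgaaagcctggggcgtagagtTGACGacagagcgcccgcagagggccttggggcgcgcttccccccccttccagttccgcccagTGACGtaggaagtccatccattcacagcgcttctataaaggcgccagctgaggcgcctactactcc
Nr4a1: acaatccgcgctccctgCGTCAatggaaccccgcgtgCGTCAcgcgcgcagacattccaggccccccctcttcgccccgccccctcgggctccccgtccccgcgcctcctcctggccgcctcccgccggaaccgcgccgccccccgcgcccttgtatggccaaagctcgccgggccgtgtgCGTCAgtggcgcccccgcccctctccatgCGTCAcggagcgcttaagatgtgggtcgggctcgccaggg
Btg2: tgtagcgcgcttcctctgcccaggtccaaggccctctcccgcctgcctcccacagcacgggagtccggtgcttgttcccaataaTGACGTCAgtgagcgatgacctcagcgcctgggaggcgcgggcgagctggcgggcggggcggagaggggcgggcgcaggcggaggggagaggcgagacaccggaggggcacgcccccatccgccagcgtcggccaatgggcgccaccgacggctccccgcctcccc
The short form nearest to the start lay 3 bases before it in Atf3, 62 in Fos, 36 in Nr4a1 and 159 in Btg2. Of the 12 largest rises, 11 had a promoter window of 300 bases in the RefSeq table, in 14 windows. The short form TGACG, searched on both strands, was in 7 of the 14 windows (50%), 2 of which are overlapping windows of Hilpda, and in 6 genes, and in 20.8% of all 32817 promoter windows of that length. The full site TGACGTCA was in 1 of the 14 windows and in 1.79% of all windows; it contains the short form on each strand. Of the 12 largest falls, 8 had a window, and 2 of 9 windows (22.2%) held the short form. The letters TGACNNNGC, the core of the antioxidant response element, were in 2 of the 14 windows of rises and 0 of the 9 windows of falls, and in 12.4% of all windows. These are matches of letters and not measured binding.

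**Figure D2:**
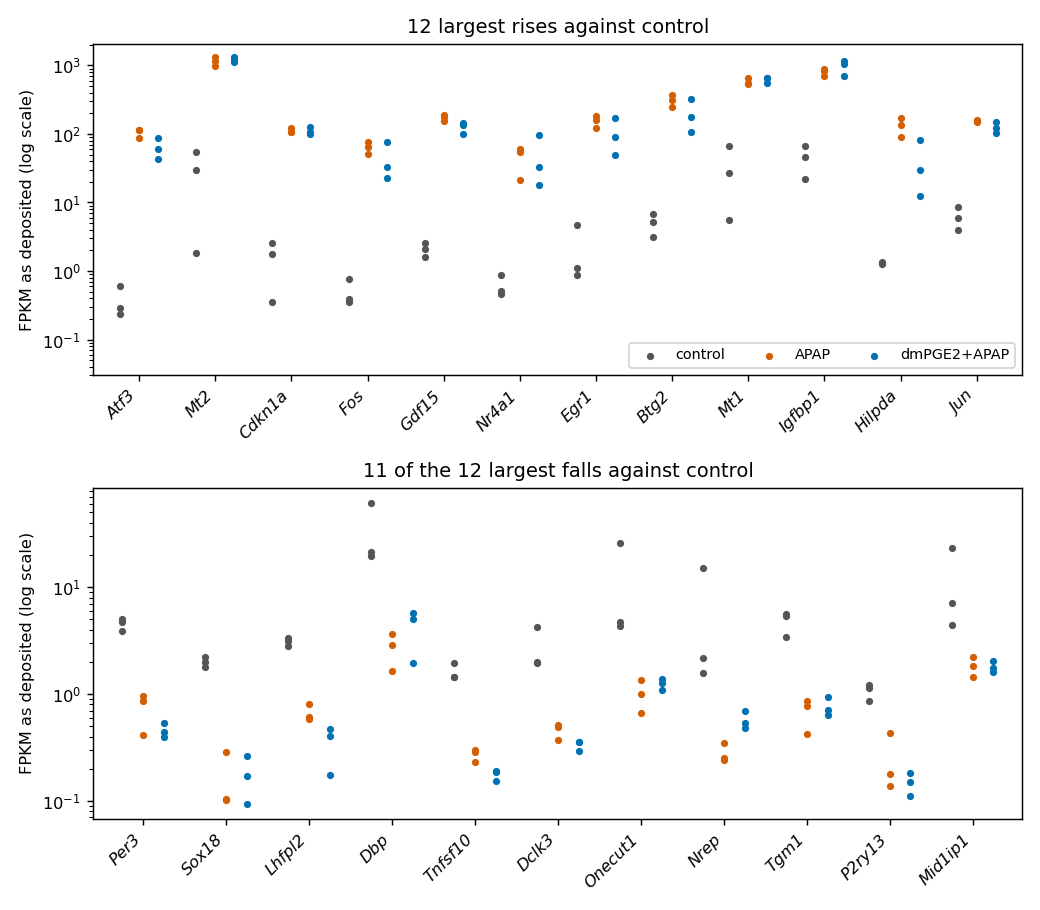
FPKM on a log axis in the 9 libraries for the 12 largest rises and 11 of the 12 largest falls of dmPGE2 plus APAP against control among genes whose libraries did not overlap. Points are single libraries, and for most of these genes the APAP and the dmPGE2 plus APAP points lie close together and apart from the controls.

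The gene lists that follow were written with earlier results of these data known, so their counts carry no test. Each count is to be read beside the 9.15% of all genes tested that were higher and the 7.03% that were lower. The immediate early genes, switched on within minutes by kinases and including transcription factors, made up the list with the largest median change. Of 23 members tested, 19 rose and none fell, with a median log2 difference from control of 2.52 against 0.01 for all genes tested. In APAP against the same controls 22 rose, with a median of 3.27. Fos measured 0.352, 0.385 and 0.772 FPKM in the controls, 76.3, 32.4 and 23.1 with dmPGE2 plus APAP and 65, 50.9 and 76.7 with APAP, a rise of log2 6.21 ± 0.41 over control. Egr1, a zinc finger factor downstream of ERK signalling, measured 0.876, 1.09 and 4.66 FPKM in controls and 169, 90.5 and 49.4 with dmPGE2 plus APAP (log2 5.84 ± 0.58). Nr4a1, an orphan nuclear receptor, measured 0.457, 0.505 and 0.877 FPKM in controls, 96.7, 32.9 and 18 with dmPGE2 plus APAP and 61.3, 21.5 and 54.5 with APAP. In all 3 genes replicate 1 of dmPGE2 plus APAP was the highest of its group and replicate 3 the lowest, and every treated library was above every control. Jun, the partner of Fos in AP-1, was steadier, with 4.0, 8.53 and 6.02 FPKM in controls, 147, 123 and 105 with dmPGE2 plus APAP and 159.6, 153 and 149 with APAP. The Jun libraries with dmPGE2 were all above the controls and all below the APAP libraries, by log2 -0.28 ± 0.24, a difference that did not pass (limma adjusted p = 0.742). Myc, which drives growth genes, rose by 4.76-fold, from 0.949, 1.97 and 0.671 FPKM to 5.95, 4.27 and 4.98 FPKM. Leaving out 1 library at a time, 17 to 20 of the 23 members rose and the median ranged from 2.07 to 2.83.

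Feedback regulators of the MAP kinases rose with them. In that list 6 of 12 members tested rose and none fell, with a median of log2 1.01. Dusp8, a phosphatase that acts on JNK and p38, measured 0.348, 0.248 and 0.298 FPKM in controls and 6.63, 7.06 and 6.54 FPKM with dmPGE2 plus APAP, and 8.27, 6.78 and 7.39 FPKM with APAP. Its rise of 18.9-fold had a small error (log2 4.24 ± 0.12, limma adjusted p = 3.94e-07), and the treated groups overlapped. Dusp8 passed the filter of 0.5 FPKM only through treated libraries, which favours a rise over control. Dusp1, a phosphatase of the same family, measured 7.42, 12.3 and 28 FPKM in controls and 138, 100.5 and 91.5 with dmPGE2 plus APAP, with control replicate 3 the highest control. Of the JNK cascade itself, 2 of 9 members rose and 6 lay at the control level, against 9.15% and 79.3% of all genes tested. Gadd45b, a regulator of the kinases upstream of JNK and p38, measured 0.977, 2.54 and 0.802 FPKM in controls. It measured 19.4, 22.3 and 21.2 FPKM with dmPGE2 plus APAP and 8.75, 14.3 and 11.9 with APAP. It was higher in each dmPGE2 plus APAP library than in each APAP library, by log2 0.90 ± 0.37, which did not pass (limma adjusted p = 0.51). Map3k5, which encodes the redox-sensitive kinase ASK1, measured 13.4, 12.1 and 11.8 FPKM in controls and 22, 20.3 and 20.4 with dmPGE2 plus APAP, a rise of 1.86-fold with no overlap. Mapk8, which encodes JNK1, lay at the control level, with 7.41, 10 and 7.7 FPKM in controls and 7.5, 11.6 and 8.98 with dmPGE2 plus APAP.

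Among regulators of mRNA decay 4 of 7 members rose, against 9.15% of all genes tested. Btg2, an antiproliferative cofactor of mRNA deadenylation, measured 5.16, 6.71 and 3.13 FPKM in controls, 320.1, 175 and 107 with dmPGE2 plus APAP and 364, 247 and 309 with APAP. Zfp36, which destabilises cytokine mRNAs, measured 9.15, 14.6 and 15.5 FPKM in controls, 119.7, 91.7 and 67.8 with dmPGE2 plus APAP and 100.01, 90.5 and 96.5 with APAP. Both genes rose with every treated library above every control, by log2 5.38 ± 0.40 for Btg2 and 2.98 ± 0.23 for Zfp36, and in each the treated groups overlapped.

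Genes of the integrated stress response, which slows translation and induces ATF4 targets, were mostly higher than in controls. Translation was not measured. Of 19 members tested 14 rose and none fell, with a median of log2 1.30 in dmPGE2 plus APAP and 1.38 in APAP against the same controls. Atf4, its central transcription factor, measured 34.2, 34.2 and 37.3 FPKM in controls, 68.6, 72.2 and 72.6 with dmPGE2 plus APAP and 74.1, 67.8 and 70 with APAP. Ddit3, which encodes the death-promoting factor CHOP, measured 1.3, 1.43 and 1.41 FPKM in controls, 11.2, 8.12 and 12.4 with dmPGE2 plus APAP and 8.58, 7.1 and 7.56 with APAP. Atf4 rose 2.25-fold with little spread (log2 1.17 ± 0.08), and Ddit3 rose 7.84-fold, with both treated groups above the controls and overlapping each other. The Ddit3 locus overlaps the gene Mars, so part of its value is uncertain. Chac1, which degrades glutathione, measured 1.27, 0.764 and 0.901 FPKM in controls and 4.82, 9.37 and 8.96 with dmPGE2 plus APAP. Ddit4, an inhibitor of mTORC1, measured 3.93, 3.07 and 1.52 FPKM in controls, 7.25, 13.1 and 6.39 with APAP and 15, 41.4 and 47.6 with dmPGE2 plus APAP. Every dmPGE2 plus APAP library of Ddit4 was above every APAP library, with replicate 1 the lowest, and the difference between these groups was log2 1.89 ± 0.50 (limma adjusted p = 0.324). The aminoacyl-tRNA synthetases, several of which are ATF4 targets, did not move with that list: all 18 lay at the control level and none was called. On the FPKM without rescaling 3 of the 18 fell, and 1 fell without control replicate 3.

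Heat shock genes, which encode protein-folding chaperones, rose in 11 of 21 members, against 9.15% of all genes tested. The median was log2 0.62 against 0.78 in APAP, and 11 members lay at the control level, against 79.3% of all genes. Hspa8, an abundant constitutive chaperone, measured 237, 245 and 271 FPKM in controls, 439, 393 and 488 with dmPGE2 plus APAP and 800.03, 609.7 and 625 with APAP. The 3 groups of Hspa8 did not overlap, and dmPGE2 plus APAP stood between the other groups, log2 0.96 ± 0.14 above control and log2 -0.59 ± 0.14 from APAP, the latter without passing (limma adjusted p = 0.324). Hspa1b and Hspa1a, inducible chaperones with nearly identical sequences whose reads may be split between them, rose by 5.75-fold and 4.8-fold. Hspb8, a small heat shock protein that acts in chaperone-assisted autophagy, measured 81.9, 78.6 and 63.5 FPKM in controls and 188, 197 and 189 with dmPGE2 plus APAP. In the endoplasmic reticulum list 17 of 20 members lay at the control level and 3 rose, near the 79.3% and 9.15% of all genes tested. Those 3 were Herpud1, Hspa5 and Creld2, the last of which kept its call in 1 of 9 fits without 1 library, that without control replicate 1. Herpud1, which acts in disposal of misfolded proteins, measured 142, 119.9 and 158 FPKM in controls and 286, 404 and 398 with dmPGE2 plus APAP, a 2.87-fold rise with no overlap. Hspa5, the chaperone BiP, rose 1.85-fold (log2 0.89 ± 0.17).

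Targets of p53, the damage-activated tumour suppressor, rose in 12 of 19 members, against 9.15% of all genes tested. Their median was log2 1.07 and none was lower. On the FPKM without rescaling 2 fell, and 1 fell without APAP replicate 2. Gadd45a and Gadd45g, relatives of Gadd45b, rose to 35.1, 23.9 and 19.6 FPKM and 75.6, 111 and 87.4 FPKM. Their controls held 1.0, 0.966 and 2.67 FPKM and 7.16, 9.37 and 1.95 FPKM. Gadd45g was higher in each library with dmPGE2 than in each APAP library, which held 32, 37.4 and 22.7 FPKM, by log2 1.62 ± 0.51 (limma adjusted p = 0.396). Mdm2, the ubiquitin ligase that turns over p53, measured 7.87, 10 and 8.54 FPKM in controls, 26.5, 17.7 and 16.4 with dmPGE2 plus APAP and 37.7, 28 and 43.4 with APAP. The 3 groups of Mdm2 did not overlap, with dmPGE2 plus APAP in the middle. In the cell death list 6 of 20 members rose and 2, Casp9 and Cflar, fell. Leaving out dmPGE2 plus APAP replicate 1, 2 or 3 left 3 that rose each time. No member fell without control replicate 1 or 2 or dmPGE2 plus APAP replicate 2 or 3, and 1 fell without APAP replicate 2 or dmPGE2 plus APAP replicate 1. Bcl2l1, which encodes the survival protein Bcl-xL, measured 9.81, 8.63 and 9.29 FPKM in controls and 19.1, 22.3 and 21.7 with dmPGE2 plus APAP. Tnfrsf12a, the receptor of TWEAK, measured 4.45, 4.09 and 2.63 FPKM in controls, 20.2, 18.1 and 12.6 with dmPGE2 plus APAP and 35.4, 22.1 and 37.3 with APAP, with no overlap between the 3 groups. The locus of Tnfrsf12a overlaps Hcfc1r1.

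Of 25 cAMP and CREB targets tested 15 rose and 1 fell, against 9.15% and 7.03% of all genes tested. The median was log2 1.40 in dmPGE2 plus APAP and 1.22 in APAP, where 14 rose and 1 fell. The fall was Inhba, an activin subunit, and its call ended without any 1 of the APAP or dmPGE2 plus APAP libraries. The 4 largest rises of this list, Fos, Nr4a1, Dusp1 and Fosl2, also belong to the immediate early or MAP kinase lists. Ppargc1a, the coactivator PGC-1alpha of the fasting response, measured 2.53, 3.79 and 1.15 FPKM in controls, 4.19, 5.03 and 5.21 with dmPGE2 plus APAP and 5.48, 4.05 and 7.07 with APAP. Its dmPGE2 plus APAP libraries were above every control, but it did not pass (log2 1.21 ± 0.37, limma adjusted p = 0.0565). Crem, a CREB relative that dampens the response, lay at the control level, with 10.9, 9.96 and 10 FPKM in controls and 9.63, 9.48 and 8.11 with dmPGE2 plus APAP. Among gluconeogenesis and fasting genes 8 of 19 rose and none fell, with a median of log2 0.71, and 5 rose without dmPGE2 plus APAP replicate 3. Lpin1, a phosphatidate phosphatase and fasting coactivator, measured 42.1, 36.4 and 41.7 FPKM in controls, 52.2, 75.1 and 48.6 with APAP and 88.6, 95.9 and 119 with dmPGE2 plus APAP. Its groups did not overlap, and the libraries with dmPGE2 were the highest (log2 1.48 ± 0.19 over control, limma adjusted p = 0.00129, and 0.83 ± 0.19 over APAP, limma adjusted p = 0.308). Pck1, which commits carbon to glucose synthesis, was not called, with 1819.5, 1991 and 698 FPKM in controls and 1549.5, 1972 and 2069 with dmPGE2 plus APAP, and control replicate 3 was the lowest library.

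Of the fatty acid oxidation and lipid droplet list 6 of 27 members rose, 13 lay at the control level and none fell. Without control replicate 3, 21 lay at that level. Pdk4, which shuts pyruvate out of the citric acid cycle, measured 2.06, 2.63 and 1.23 FPKM in controls, 9.46, 30.4 and 29 with dmPGE2 plus APAP and 77.4, 62.9 and 106 with APAP. Hilpda, an inhibitor of lipid droplet breakdown, measured 1.3, 1.29 and 1.35 FPKM in controls, 82.9, 30.1 and 12.3 with dmPGE2 plus APAP and 134, 91.2 and 171 with APAP. In both genes the 3 groups did not overlap and dmPGE2 plus APAP lay between control and APAP. Its replicate 1 was the lowest of its group for Pdk4 and the highest for Hilpda. The difference from APAP was log2 -1.95 ± 0.44 for Pdk4 and -1.99 ± 0.56 for Hilpda, and neither passed (limma adjusted p = 0.308 and 0.358). Ucp2, an inner mitochondrial membrane carrier, measured 7.13, 6.04 and 5.78 FPKM in controls and 14.3, 10.5 and 10.3 with dmPGE2 plus APAP, a 2.03-fold rise. Hypoxia targets rose in 7 of 20 members, Hilpda among them, against 9.15% of all genes tested. Ndrg1, a stress protein induced by hypoxia, measured 3.01, 2.9 and 4.45 FPKM in controls, 6.66, 8.44 and 5.33 with APAP and 9.92, 11.3 and 9.61 with dmPGE2 plus APAP, each library with dmPGE2 being above all others.

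NF-kB targets, cytokines and adhesion molecules rose in 6 of 18 members tested, against 9.15% of all genes. The median was log2 0.56 against 0.86 in APAP. That median was 0.16 without dmPGE2 plus APAP replicate 1. Vcam1, an endothelial adhesion molecule for leukocytes, measured 6.89, 5.6 and 4.68 FPKM in controls, 14.8, 11.8 and 10.2 with APAP and 17.2, 16.9 and 16.3 with dmPGE2 plus APAP. Nfkbia, the inhibitor of NF-kB, measured 18.6, 16.9 and 23.5 FPKM in controls, 32.3, 34.9 and 31.1 with APAP and 32.7, 46.3 and 50.7 with dmPGE2 plus APAP. Both rose over control, by 3.26-fold and 2.42-fold, and in Vcam1 the libraries with dmPGE2 were above those of APAP. Cxcl2, a neutrophil attractant, was low, with 0.0297, 0.126 and 0.0467 FPKM in controls and 2.87, 0.83 and 0.446 with dmPGE2 plus APAP, and rose by log2 2.90 ± 0.61. With a pseudocount of 1 the difference of Cxcl2 was log2 1.06 and its call was lost (limma adjusted p = 0.0887). Cxcl2 passed the filter only through treated libraries, which favours a rise over control. Its relative Cxcl1 was not called in dmPGE2 plus APAP, with 1.74, 1.72 and 2.2 FPKM in controls, 6.59, 1.25 and 1.71 with dmPGE2 plus APAP and 11.1, 4.74 and 15 with APAP. Replicate 1 held most of that level, and the other libraries of the group were below every control. Il1b, an inflammasome cytokine, measured 1.32, 0.776 and 1.67 FPKM in controls, 0.955, 0.826 and 0.298 with dmPGE2 plus APAP and 3.81, 1.35 and 2.51 with APAP, and passed in neither comparison with control. Cd14, the lipopolysaccharide co-receptor made by hepatocytes in the acute phase, measured 1.35, 1.36 and 0.783 FPKM in controls and 22, 9.6 and 8.18 with dmPGE2 plus APAP, a 10.8-fold rise. Cd14, Mt1 and Mt2 were the 3 of 26 metallothionein and acute phase genes that rose, near the 9.15% of all genes tested. Without control replicate 1, 5 rose.

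Of genes that start coagulation or fibrinolysis 5 of 8 tested rose and 1, F3, fell, against 9.15% and 7.03% of all genes tested. The median of the list was log2 1.59. Thbd, the endothelial anticoagulant thrombomodulin, measured 1.68, 1.26 and 1.35 FPKM in controls, 12.3, 8.94 and 9.8 with APAP and 13.2, 13.2 and 12.4 with dmPGE2 plus APAP. Every library with dmPGE2 was above every APAP library and every control (log2 3.25 ± 0.14 over control, limma adjusted p = 5.94e-06). Tissue factor, F3, measured 1.21, 1.55 and 3.4 FPKM in controls and 0.603, 0.632 and 0.541 with dmPGE2 plus APAP, and was named because it was the single fall of its list.

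Growth signals for regeneration rose in 6 of 14 members tested, against 9.15% of all genes. Areg, an EGF receptor ligand, was at 0 FPKM in 2 controls and 0.0251 FPKM in the other, and held 0.348, 0.524 and 0.386 FPKM with dmPGE2 plus APAP and 1.4, 0.919 and 1.81 FPKM with APAP. All 3 groups of Areg were apart, with dmPGE2 plus APAP between the others. Areg passed the filter only through treated libraries, which favours a rise over control. Hgf, the stellate cell mitogen for hepatocytes, measured 6.47, 6.11 and 7.59 FPKM in controls, 11.6, 11.4 and 11.4 with dmPGE2 plus APAP and 11.2, 11.4 and 9.99 with APAP, a 1.89-fold rise. Among cytoskeleton genes and YAP targets 6 of 22 rose with dmPGE2 plus APAP and 13 rose with APAP against the same controls, with medians of log2 0.22 and 0.92. The median with dmPGE2 plus APAP was 0.11 without its replicate 1, 0.42 without control replicate 3 and 0.07 on the FPKM without rescaling. Actg1, cytoplasmic actin, measured 60.4, 60.3 and 40.5 FPKM in controls, 275, 166 and 109.99 with dmPGE2 plus APAP and 331, 184 and 265 with APAP. Tubb2a, a tubulin, measured 16.9, 20.9 and 9.42 FPKM in controls and 75.2, 68.3 and 55.2 with dmPGE2 plus APAP. Both rose, and for both the dmPGE2 plus APAP libraries overlapped those of APAP.

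Fewer falls than rises reached 2-fold, and the 12 largest falls included the clock genes Per3 and Dbp and the hepatocyte transcription factor Onecut1. Per3, a clock repressor, measured 3.89, 5.08 and 4.72 FPKM in controls, 0.4, 0.445 and 0.536 with dmPGE2 plus APAP and 0.865, 0.41 and 0.965 with APAP, a 7.55-fold fall against control (log2 -2.92 ± 0.26, limma adjusted p = 2.54e-04). Dbp, a clock output factor, measured 19.4, 21.2 and 61.8 FPKM in controls and 1.97, 5.73 and 5.05 with dmPGE2 plus APAP, with control replicate 3 the highest library. Both genes had every treated library below every control; the locus of Per3 overlaps Camta1 and that of Dbp overlaps Sphk2. Clock genes as a list moved both ways, with 8 higher and 4 lower of 20 tested, and 5 higher without dmPGE2 plus APAP replicate 2. Over all genes tested 9.15% were higher and 7.03% lower. Arntl, which encodes the activator BMAL1, measured 1.48, 2.19 and 0.441 FPKM in controls and 9.62, 8.9 and 8.12 with dmPGE2 plus APAP. Nfil3, a repressor that opposes Dbp, measured 8.51, 11.1 and 5.44 FPKM in controls, 40.7, 41.6 and 41 with dmPGE2 plus APAP and 34.3, 36.5 and 37.1 with APAP. Arntl rose 7.9-fold and Nfil3 5.65-fold, and in both control replicate 3 was the lowest library.

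Of 19 hepatocyte transcription factors 10 fell and 1 rose, against 7.03% and 9.15% of all genes tested. Of the 19, 12 lay at the control level, a class that can include called genes, against 79.3% of all genes tested. The median was log2 -0.56 in dmPGE2 plus APAP. APAP gave 9 lower and 1 higher with a median of -0.30. Foxa2, a pioneer factor, measured 7.75, 6.78 and 8.05 FPKM in controls, 3.92, 4.57 and 4.38 with APAP and 2.96, 2.76 and 3.55 with dmPGE2 plus APAP. The 3 groups of Foxa2 did not overlap, and the libraries with dmPGE2 were the lowest (log2 -1.11 ± 0.13 from control, limma adjusted p = 7.99e-04). Nr2f2, which encodes COUP-TFII, measured 14.8, 15.8 and 15.1 FPKM in controls, 4.1, 5.78 and 4.02 with dmPGE2 plus APAP and 3.96, 5.35 and 4.64 with APAP, a 2.96-fold fall. Onecut1, which encodes HNF6, measured 4.76, 4.3 and 25.7 FPKM in controls and 1.1, 1.38 and 1.27 with dmPGE2 plus APAP. Control replicate 3 was far above the other controls, and the call of Onecut1 ended without any 1 of the dmPGE2 plus APAP libraries. Hnf4a, the master regulator of hepatocyte identity, lay at the control level, with 266, 212 and 192 FPKM in controls and 223, 225 and 227 with dmPGE2 plus APAP. The 1 rise was Cebpb, an acute phase and regeneration factor, from 104, 129.7 and 70.9 FPKM to 276, 261 and 239 FPKM. On the FPKM without rescaling 13 of the 19 fell. Leaving out 1 library at a time, 7 to 12 fell, with 7 without dmPGE2 plus APAP replicate 1, 2 or 3.

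The other genes described among the 12 largest falls had varied functions. Sox18, an endothelial transcription factor, measured 2.2, 1.79 and 1.97 FPKM in controls, 0.0937, 0.265 and 0.172 with dmPGE2 plus APAP and 0.103, 0.29 and 0.105 with APAP. Tnfsf10, the death ligand TRAIL, measured 1.44, 1.45 and 1.97 FPKM in controls, 0.186, 0.192 and 0.155 with dmPGE2 plus APAP and 0.23, 0.289 and 0.299 with APAP. Both genes had treated libraries far below controls with no overlap, and for Tnfsf10 the libraries with dmPGE2 were also below those of APAP. Sox18 and Tnfsf10 passed the filter of 0.5 FPKM only through the control libraries, which favours a fall against control. Lhfpl2, a membrane protein, fell 6.82-fold and Dclk3, a kinase, 5.6-fold. Tgm1, a transglutaminase, fell 5.09-fold, from 5.32, 3.43 and 5.65 FPKM to 0.708, 0.94 and 0.634 FPKM. P2ry13, a nucleotide receptor whose locus overlaps Med12l, fell 4.35-fold. Nrep and Mid1ip1, a regulator of fatty acid synthesis, were also among the 12 largest falls. In both, control replicate 3 was far above the others, at 15.3 and 23.1 FPKM. The call of Nrep ended without any 1 of the APAP or dmPGE2 plus APAP libraries, and that of Mid1ip1 without dmPGE2 plus APAP replicate 2 or 3.

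Markers of other cells gave their own pattern. Of 6 platelet markers tested 5 rose in dmPGE2 plus APAP, against 9.15% of all genes tested. The median of the 6 was log2 1.19 against 2.64 in APAP. The summed FPKM of the 11 platelet markers in the table was 2.85 to 4.41 in controls, 20.1 to 24.4 with APAP, and 12.6, 7.58 and 6.64 with dmPGE2 plus APAP. Pf4, platelet factor 4, measured 0.608, 0.547 and 0.434 FPKM in controls, 1.75, 1.06 and 0.952 with dmPGE2 plus APAP and 3.11, 3.55 and 3.99 with APAP. Its 3 groups did not overlap, with dmPGE2 plus APAP between control and APAP (log2 1.20 ± 0.23 over control, limma adjusted p = 0.00962, and -1.44 ± 0.23 from APAP, limma adjusted p = 0.174). Itga2b, the platelet integrin, rose 2.26-fold, from 0.847, 1.0 and 0.822 FPKM to 2.52, 1.66 and 1.69 FPKM. Without control replicate 1, 2 or 3, or dmPGE2 plus APAP replicate 2, 3 of the 6 platelet markers rose. The summed level of the 8 erythroid markers was 361 to 496 FPKM in controls, 365 to 389.9 with dmPGE2 plus APAP and 521 to 1115 with APAP. All 6 erythroid markers tested lay at the control level, 3 of them without control replicate 3.

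**Figure D3:**
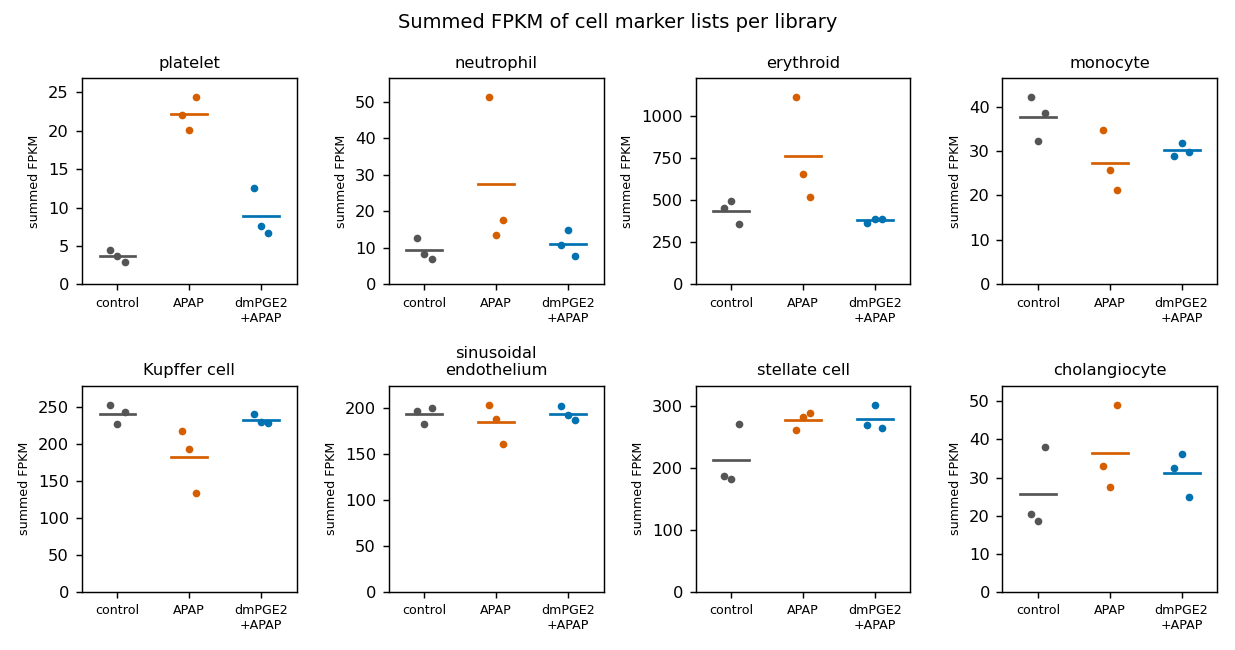
Summed FPKM of the markers of each cell type in each of the 9 libraries, one panel per list. The platelet sums with dmPGE2 plus APAP lie between control and APAP, and the erythroid sums lie in the range of the controls.

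Neutrophil markers rose in 3 of 12 tested, Clec4d, Trem1 and Il1r2, and 1 fell, against 9.15% and 7.03% of all genes tested. Il1r2 kept its call in 2 of 9 fits without 1 library, and with a pseudocount of 1 Il1r2 and Trem1 both lost theirs (limma adjusted p = 0.229 and 0.0731). The summed level of the neutrophil markers was 6.93 to 12.8 FPKM in controls, 7.78 to 15.0 with dmPGE2 plus APAP and 13.6 to 51.3 with APAP. Clec4d, a myeloid lectin, measured 0.0232, 0.0224 and 0.0443 FPKM in controls and 0.407, 0.412 and 0.253 with dmPGE2 plus APAP. With APAP it measured 0.981, 0.574 and 0.748 FPKM, with the 3 groups apart. It passed the filter of 0.5 FPKM only through the APAP libraries, which favours a rise over control. Fpr1, the formyl peptide receptor, fell 3.04-fold, from 2.25, 2.06 and 1.4 FPKM to 0.519, 0.675 and 0.325 FPKM. Of 15 Kupffer cell markers 12 lay at the control level, near the 79.3% of all genes, 1 rose and 1 fell. The count of rises was 4 without APAP replicate 3 and 0 or 1 when each other library was left out in turn. The risen one, Cd163, was called without control replicate 1 or APAP replicate 1 or 3 and in no other fit that left out a library. Slc40a1, the iron exporter ferroportin, fell, with 47.4, 45.3 and 54.1 FPKM in controls, 21.2, 21.5 and 23.7 with dmPGE2 plus APAP and 14.4, 19.4 and 17.3 with APAP. Its groups did not overlap and dmPGE2 plus APAP stood between the others. The summed Kupffer markers were 227 to 254 FPKM in controls, 229 to 240.3 with dmPGE2 plus APAP and 134 to 218 with APAP. Of 19 sinusoidal endothelium markers 16 lay at the control level, also near that share, 3 rose and 2 fell, the rises being Lyve1, Cdh5 and Flt4. Lyve1, a hyaluronan receptor, measured 6.26, 3.47 and 3.11 FPKM in controls, 15.6, 13.8 and 11.3 with APAP and 16.8, 27.2 and 24.3 with dmPGE2 plus APAP, and every library with dmPGE2 was above every other library. Kdr, the VEGF receptor, fell 1.71-fold and Gpr182, a sinusoidal receptor, 1.99-fold. Stellate cell markers rose in 4 of 17, Hgf, Dcn, Ecm1 and Bgn, a count that ranged from 2 without control replicate 1 or 2 or dmPGE2 plus APAP replicate 1 or 2 to 9 without control replicate 3. The part of cell content in these results was not tested. Of 12 exocrine pancreas markers 7 were at 0 FPKM in all libraries, and the 14 lymphocyte markers in the table summed to between 1.17 and 3.68 FPKM.

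**Figure D4:**
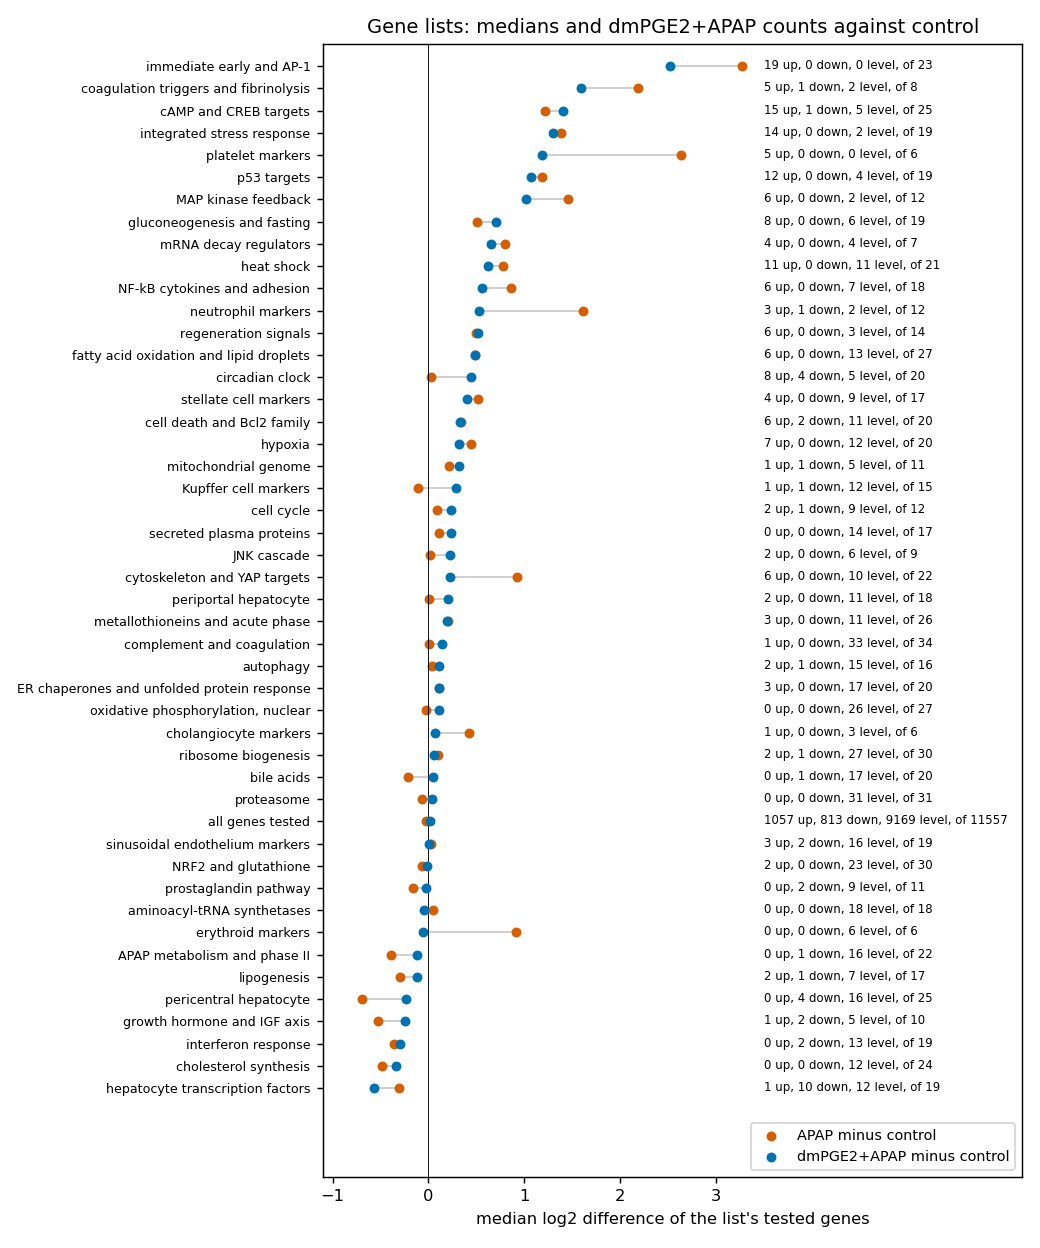
Median log2 difference from control of each gene list in APAP and in dmPGE2 plus APAP, with the number of members called. Both comparisons share the 3 control libraries, and the immediate early list has the largest medians in both.

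Most members of large basic cell machineries lay at the control level, as did 79.3% of all genes tested. All 31 proteasome subunits did, with none called, and without control replicate 3 or without rescaling 1 fell. Of 27 nuclear genes of oxidative phosphorylation 26 did and none was called, and 1 rose without control replicate 3. Complement and coagulation factors lay there in 33 of 34 members. For ribosome biogenesis the count was 27 of 30 and for autophagy 15 of 16. Of 17 secreted plasma proteins 14 did, near the share of all genes, and none was called. Alb itself measured 21428, 23766 and 23719 FPKM in controls and 31349, 28045 and 27412 with dmPGE2 plus APAP. Its treated libraries were above every control, it was not called, and its interval of log2 -0.07 to 1.04 passed the 2-fold bound by a small margin. On the FPKM without rescaling the medians of the oxidative phosphorylation, complement and proteasome lists turned from above 0 to below it.

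Of 30 genes of the NRF2 and glutathione list, the defence against electrophiles, 23 lay at the control level, near the 79.3% of all genes tested. With dmPGE2 plus APAP 2 rose, Hmox1 and Osgin1, where APAP gave 6 higher. Over all genes tested 9.15% and 11.3% were higher in these comparisons. The medians of the list were alike, at log2 -0.02 with dmPGE2 plus APAP and -0.06 with APAP. Between the treated groups 0 members were called. Hmox1, heme oxygenase, measured 12.3, 10.7 and 7.6 FPKM in controls, 215, 255 and 156 with dmPGE2 plus APAP and 344, 251 and 314 with APAP, a 22.5-fold rise with the treated groups overlapping. Osgin1, an oxidative stress-induced growth inhibitor, kept its call in 4 of 9 fits without 1 library. Gclc, the catalytic subunit of glutathione synthesis, measured 41.6, 53.6 and 74.9 FPKM in controls, 94.6, 76.2 and 66.2 with dmPGE2 plus APAP and 129.6, 97.5 and 127 with APAP. It overlapped the controls and missed the threshold (log2 0.66 ± 0.21, limma adjusted p = 0.0621), and it was called without control replicate 3. Nqo1, a quinone reductase, lay at the control level, with 2.54, 3.9 and 1.64 FPKM in controls and 2.19, 2.29 and 2.13 with dmPGE2 plus APAP. The whole list gave 1 higher without control replicate 1 or 2, APAP replicate 3, or dmPGE2 plus APAP replicate 1 or 2, and 4 higher without control replicate 3.

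Of the APAP metabolism and phase II list 16 of 22 members lay at the control level, near the 79.3% of all genes tested, and 1, Ugt2b35, fell, a fall that ended without dmPGE2 plus APAP replicate 1 or 2. Cyp2e1, the main enzyme of APAP activation, measured 3955, 3647 and 2759.6 FPKM in controls, 3095, 3001 and 3160.3 with dmPGE2 plus APAP and 2364, 3007 and 2575 with APAP. Its libraries overlapped in all groups and its difference from control was log2 0.01 ± 0.20. Among 25 genes of pericentral hepatocytes, the zone where APAP acts, 16 lay at the control level and 4 fell, where APAP gave 9 lower against the same controls. The medians were log2 -0.24 and -0.69. That with dmPGE2 plus APAP was -0.13 without its replicate 1 and -0.39 on the FPKM without rescaling. The 4 that fell were Cyp2a5, Sp5, Tbx3 and Rnf43. Cyp2a5, a pericentral cytochrome P450, measured 206, 335 and 255 FPKM in controls, 58.3, 49.5 and 67.1 with dmPGE2 plus APAP and 27, 56.5 and 34.2 with APAP, a 4.04-fold fall. Its treated groups overlapped and its locus overlaps Cyp2a22. Sp5 and Tbx3, targets of Wnt signalling, fell 2.92-fold and 2.8-fold. Rnf43, another Wnt target, lost its call without dmPGE2 plus APAP replicate 2 or 3. Glul, glutamine synthetase of the innermost hepatocytes, measured 451, 441 and 354 FPKM in controls, 226, 260.5 and 290.1 with dmPGE2 plus APAP and 151, 196 and 125 with APAP. Its 3 groups did not overlap, with dmPGE2 plus APAP in the middle. It was not called against control (log2 -0.53 ± 0.20, limma adjusted p = 0.107) but was on the FPKM without rescaling, and its locus overlaps Teddm2.

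Bile acid genes lay at the control level in 17 of 20 members, near the 79.3% of all genes tested. Nr1h4, the bile acid receptor FXR, fell within the 2-fold bound, from 44.9, 46.2 and 59.6 FPKM to 28.2, 32.5 and 30.3 FPKM. Cyp7a1, which catalyses the first and limiting step from cholesterol to bile acids, measured 17.5, 43.3 and 40.5 FPKM in controls, 8.4, 57.2 and 34.4 with dmPGE2 plus APAP and 1.99, 5.75 and 6.72 with APAP. Each library with dmPGE2 was above each APAP library, but replicate 1 was below every control, and the interval against control, log2 -1.72 to 1.43, was too wide to place it at the control level. Cholesterol synthesis gave no call among 24 members and 12 at the control level, below the 79.3% of all genes tested. Without control replicate 1, 11 of the 24 fell. In the prostaglandin pathway 9 of 11 members tested lay at the control level, near that share, and 2 fell. Pla2g4a, the phospholipase that frees arachidonate, measured 0.705, 0.812 and 0.688 FPKM in controls and 0.185, 0.0924 and 0.0631 with dmPGE2 plus APAP, a 3.71-fold fall. Every control of Pla2g4a reached the filter of 0.5 FPKM and no library with dmPGE2 did, which favours a fall. Ptgs1, cyclooxygenase 1, measured 4.92, 4.87 and 5.26 FPKM in controls, 3.28, 3.15 and 3.02 with dmPGE2 plus APAP and 3.42, 3.34 and 3.25 with APAP, a fall inside the 2-fold bound that left no overlap with the controls. Hpgd, which inactivates prostaglandins, measured 43, 54.2 and 52.2 FPKM in controls, 37.3, 41.8 and 43.1 with dmPGE2 plus APAP and 28.4, 32.6 and 23.8 with APAP, and lay at the control level. Ptger4, the one receptor of prostaglandin E2 that passed the filter, lay at the control level with 0.484, 0.442 and 0.764 FPKM.

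Several other lists had few calls that turned on single libraries. Over all genes tested 9.15% were higher and 7.03% lower, and most of these counts lay near those shares. Interferon response genes gave 2 falls of 19, and between 0 and 2 when 1 library was left out. Cell cycle genes gave 2 rises, Ccne2 and Pcna, and 1 fall, Ccnd1, of 12 tested, with 0 to 2 rises and 0 or 1 fall. Lipogenesis genes gave 2 rises and 1 fall of 17, with 0 to 4 rises and 0 to 2 falls. Periportal hepatocyte genes gave 2 rises of 18, Sds and Hsd17b13, with 0 to 3. Fasn, fatty acid synthase, measured 9.84, 14.2 and 55 FPKM in controls and 11.4, 10.3 and 10.3 with dmPGE2 plus APAP and was not called. Control replicate 3 was the one library far from the rest for that gene. Cps1, the entry enzyme of the urea cycle, lay at the control level with 1436, 1514 and 1176 FPKM in controls and 1490.2, 1319 and 1324 with dmPGE2 plus APAP. In the growth hormone and IGF list, Cish, a target of the growth hormone signal, measured 2.52, 1.91 and 2.27 FPKM in controls, 0.845, 0.75 and 0.698 with dmPGE2 plus APAP and 0.907, 0.833 and 0.652 with APAP. It fell 2.44-fold with no overlap of treated and control libraries.

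No gene met all 3 criteria planned for a return to control: called in APAP against control, called in the opposite direction in dmPGE2 plus APAP against APAP, and at the control level. That count was 0 because dmPGE2 plus APAP against APAP gave 0 called genes, or 0% of those tested, with limma. At an unadjusted p under 0.05 it gave 1082 genes, or 9.36% of those tested, 549 higher and 533 lower. The interval of that difference lay inside 2-fold for 10227 genes. Without dmPGE2 plus APAP replicate 1 the comparison called 42 genes, and 16 of them met the 3 criteria; without APAP replicate 2 it called 2 genes, which also met them. Leaving out control replicate 2 or 3 or APAP replicate 3 gave 1 called gene each. Likewise 0 genes had moved further from control, and 9 had without dmPGE2 plus APAP replicate 1.

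The genes that APAP moved were therefore followed by their own values, a grouping made after the values were seen. APAP called 688 genes at 2-fold or more against control, or 5.95% of those tested, 501 higher and 187 lower. Of these, 508 were called against the same controls in the same direction in dmPGE2 plus APAP, 29 were at the control level and not called, and 151 were neither. Over all genes tested 16.2% were called and 79.3% lay at the control level. The 688 genes were chosen by a comparison with the same 3 control libraries, so these counts are a description and no independent evidence that a response remained. The part still called was 76% of the genes higher in APAP and 67.9% of those lower, and the part at the control level was 3.39% and 6.42%. Leaving out 1 library at a time gave between 17 genes, without dmPGE2 plus APAP replicate 3, and 57, without APAP replicate 2, at the control level and not called. It was 19 without control replicate 2 and 48 without dmPGE2 plus APAP replicate 1. Of the 29, 17 had been higher in APAP and 12 lower, 12 stayed within the bound without each of the 9 libraries in turn, and 22 did so without rescaling. For some of the 29 the interval still excluded no change, on the side of APAP. Examples were Gnpda2 (log2 -0.968 to -0.168) and Baz1a (log2 0.164 to 0.968). For others, such as Ube2l6 (log2 -0.178 to 0.388), the interval included no change.

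Among the genes that were lower in APAP and at the control level, B3galt1, a galactosyltransferase, measured 8.85, 7.31 and 11.8 FPKM in controls, 3.43, 2.87 and 3.6 with APAP and 4.84, 10.5 and 11.2 with dmPGE2 plus APAP. Its APAP libraries were below all others, and replicate 1 with dmPGE2 was below every control. Upp2, a uridine phosphorylase, measured 76.1, 88.9 and 99.9 FPKM in controls, 26.4, 36 and 37.9 with APAP and 65.7, 128 and 134 with dmPGE2 plus APAP. Hamp, the iron hormone hepcidin, measured 739.6, 599.7 and 1029.7 FPKM in controls, 203, 259 and 263 with APAP and 593, 412 and 601 with dmPGE2 plus APAP. In both the groups with dmPGE2 and with saline overlapped and the APAP libraries were apart, and each stayed at the control level in 5 of 9 fits without 1 library. Upp2 was called higher than control without dmPGE2 plus APAP replicate 1, Hamp left the bound without rescaling, and the locus of Hamp overlaps its close relative Hamp2. Cyp2c37, a cytochrome P450, measured 174, 167 and 127 FPKM in controls, 51.5, 115 and 57.7 with APAP and 101, 132 and 147 with dmPGE2 plus APAP. Here 1 APAP library was inside the range of the group with dmPGE2.

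Among those higher in APAP, Ube2l6, the conjugating enzyme of the ubiquitin-like protein ISG15, measured 6.59, 7.16 and 8.04 FPKM in controls, 16, 11.1 and 13.9 with APAP and 6.81, 7.41 and 6.82 with dmPGE2 plus APAP. Bach1, a repressor of heme oxygenase and other NRF2 targets, measured 14.9, 14.8 and 16.2 FPKM in controls, 33.3, 24 and 36.4 with APAP and 23.2, 15.4 and 16.5 with dmPGE2 plus APAP. The APAP libraries of both were above all others, and for Bach1 replicate 1 was the highest of the libraries with dmPGE2. Krt23, a keratin of injured liver, measured 0.879, 0.883 and 0.866 FPKM in controls, 2.31, 1.98 and 1.53 with APAP and 1.34, 0.68 and 0.766 with dmPGE2 plus APAP. Hba-a1, an alpha globin of red cells with a near-identical copy, measured 79.8, 98.6 and 72.9 FPKM in controls, 236, 139 and 115 with APAP and 71.4, 76 and 68.9 with dmPGE2 plus APAP. G0s2, an inhibitor of lipolysis whose locus overlaps Lamb3, measured 45.7, 111 and 37 FPKM in controls, 162, 146 and 152 with APAP and 42.3, 45.8 and 49.7 with dmPGE2 plus APAP. Control replicate 2 of G0s2 was the highest control, and it stayed inside the bound in 1 of 9 fits without 1 library. These genes were named after their values were seen.

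**Figure D5:**
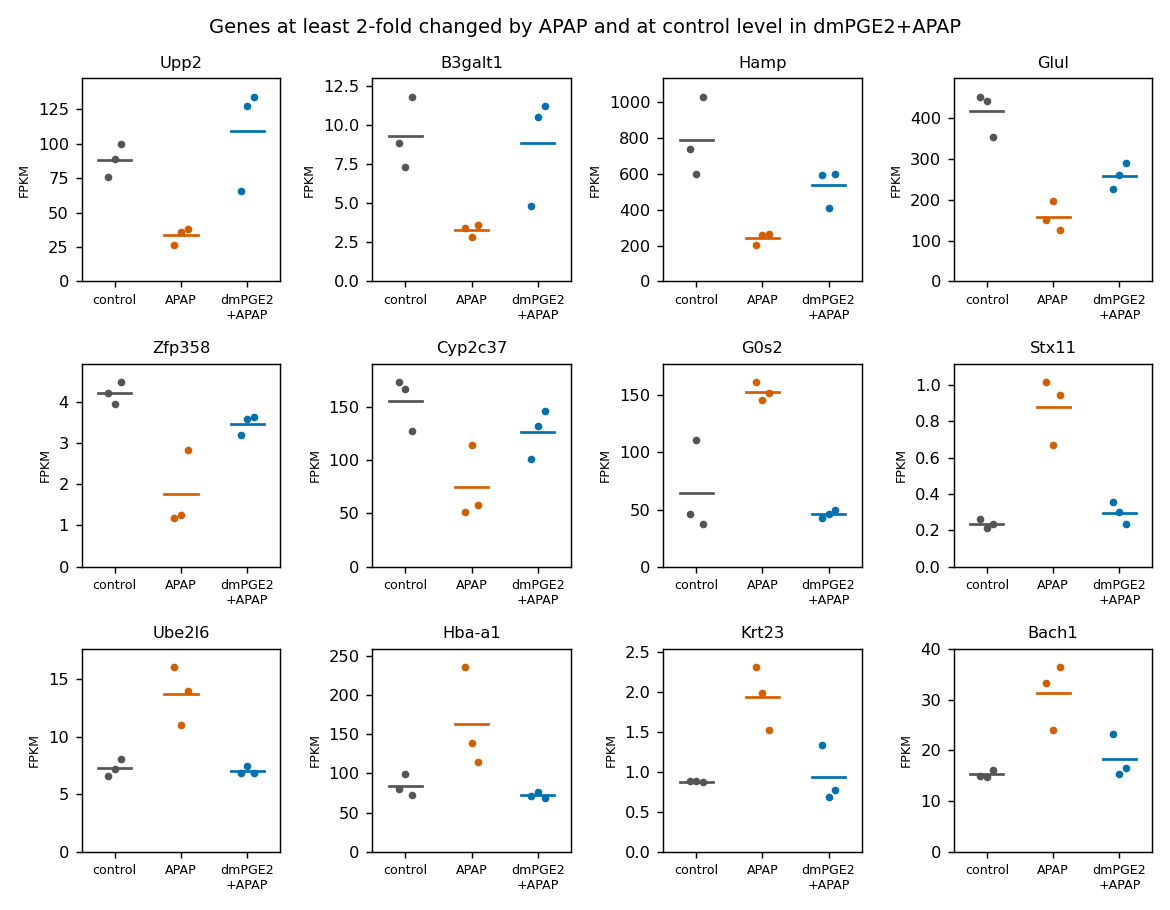
FPKM in the 9 libraries for 12 genes called at 2-fold or more in APAP against control that lay at the control level in dmPGE2 plus APAP, chosen after their values were seen. Points are libraries and bars are group means. For most genes the APAP points stand apart while the other groups overlap or lie close. For Cyp2c37 the APAP and dmPGE2 plus APAP points overlap, and for Glul the dmPGE2 plus APAP points lie below every control.

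Between these classes were the 151 genes that were neither called nor at the control level, and in some of them 1 library stood apart. Dusp5, a phosphatase of ERK, measured 0.479, 0.231 and 0.55 FPKM in controls, 19.6, 11.9 and 27 with APAP and 9.74, 1.83 and 0.729 with dmPGE2 plus APAP. Srxn1, an NRF2 target that repairs peroxiredoxins, measured 13.5, 19.9 and 8.79 FPKM in controls, 90.3, 46.3 and 103 with APAP and 48.3, 16.7 and 16.1 with dmPGE2 plus APAP. Krt8, the hepatocyte keratin, measured 60.7, 64.4 and 55.7 FPKM in controls, 215, 166 and 253 with APAP and 185, 69.3 and 63.2 with dmPGE2 plus APAP. In all 3 replicate 1 with dmPGE2 was well above the other libraries of its group, which were nearer to the controls. Without replicate 1, Krt8 and B3galt1 were among the 16 genes that met the 3 criteria. Dusp5 was still neither called nor at the control level without it (log2 1.46 over control, limma adjusted p = 0.0735). Apoa4, an apolipoprotein induced in fasting, measured 144, 179.8 and 35.7 FPKM in controls, 1239.5, 604 and 723 with APAP and 339, 252 and 237 with dmPGE2 plus APAP, and lay above the controls and below APAP in every library. These were also named after their values were seen.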

How the data were processed

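The authors deposited a table of mRNA levels as FPKM for 9 liver libraries, 3 per group. The submitters' processing notes name HISAT2 and the mouse build GRCm38 (mm10). The quantifier, the annotation and whether strand was used are not given in the sources used here, so loci that overlap another gene are uncertain. Not all such loci are marked where the gene is described. Those of Dusp1, Cebpb, Hnf4a, Gpr182, Ptger4, Hspa1a, Sds, Ccnd1, Ccne2 and Gnpda2 also each overlap 1 other tested gene. Deposited tables named as read counts held values that are not counts and were not used, and the table of long noncoding RNA was not used here. The control columns carry an abbreviation that the labels do not define. They were assigned to the control group because the other 6 columns name the other groups, the series has 3 groups of 3 libraries, and the description supplied for this comparison gives that abbreviation as the saline control. They were not matched to single control samples, and control replicate numbers come from the column names. FPKM keep no read number, so no interval for depth is given.

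Each library was divided by a trimmed mean of log ratios (30% ratio trim, 5% abundance trim) over the whole table. Genes at 0.5 FPKM or more in at least 3 of 9 libraries were tested on log2(FPKM + 0.1) after rescaling, so fold changes of low genes are understated. A gene low in controls could pass this filter through treated libraries alone, which favours a rise. A gene low in treated libraries could pass it through the controls alone, which favours a fall. Among low genes the members tested, and the counts of them, therefore lean towards differences from control. The fit was limma 3.58.1 in R 4.3.3 on the 3 group means, with a variance trend, 6 residual degrees of freedom and two-sided tests. Calls were made at a Benjamini-Hochberg adjusted p of 0.05 over all 11557 genes. An exact test of 3 against 3 libraries cannot go below p = 0.1. FPKM printed are as deposited. Differences and folds were computed after rescaling. The fit was tested on simulated data. Among the genes of the table, 31 symbols occur more than once.

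Genes named were the 12 largest rises and 12 largest falls among called genes whose treated and control libraries do not overlap, in each gene list the 4 called members with the largest difference and members marked as key, and genes back at the control level or further from it; others are said to be named after their values were seen, as were members named to complete a count of 5 or fewer. Some genes that this rule names are not reported here. The members and lists were chosen with earlier results of these data known. Alternatives were other rescalings, pseudocounts and filters, a replicate block, the 6 libraries of the comparison only, no variance trend, and each library left out. Gene list counts and the genes that APAP moved at least 2-fold were recomputed under alternatives added after the data were seen.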

Additional observations from a re-analysis of the deposited data

How the results depend on the processing

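Under no alternative did a called difference change sign among the genes named; differences near 0 that were not called, such as those of Cyp7a1, Nqo1 and Cyp2e1, did. Of 135 called genes among those named, 95 kept their call under all settings and 40 lost it under at least 1. Without rescaling, 1792 genes were called lower. With the bound at 1.5-fold, 5447 genes lay at the control level. With a pseudocount of 1, APAP gave 371 genes called at 2-fold or more, of which 275 were called with dmPGE2 plus APAP. With no filter on low values, 63 genes at 2-fold or more in APAP lay at the control level and were not called. Leaving out 1 library at a time, calls against control ranged from 1028 to 1833, calls higher from 644 to 978, calls lower from 384 to 881, and genes at the control level from 8664 to 9168. Genes back at the control level by the 3 criteria ranged from 0 to 16, genes further from control from 0 to 9, and calls of dmPGE2 plus APAP against APAP from 0 to 42. Genes at 2-fold or more in APAP ranged from 561 to 739, those called with dmPGE2 plus APAP from 417 to 517, and those at the control level and not called from 17 to 57. Libraries of different groups share only a replicate number. Deviations of such libraries with the same number correlated between -0.117 and 0.0716. For pairs with different numbers the correlation lay between -0.154 and 0.149. With a replicate block 1490 genes were called, 881 higher and 609 lower, 9188 lay at the control level, and 0 were called against APAP. With the 6 libraries of the comparison alone 1540 genes were called. The lymphocyte and exocrine pancreas lists had 1 member tested each. The unknown depth limits what can be said of genes near the filter.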
